A study of Mus musculus with 4 samples.

Results

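Inflammatory caspases and the genes that work with them in inflammasomes were examined as a set of 9 genes, of 22180 genes with a usable row on the arrays. The set held the caspase genes Casp1, Casp4 and Casp12, the sensor genes Nlrp3 and Aim2, the adaptor gene Pycard, the pore gene Gsdmd and the cytokine genes Il1b and Il18. Members were picked by symbol from rows annotated with exactly 1 gene, and Gsdmd, the one member with 2 such rows, was represented by the row with the higher mean over the 4 arrays. The differences of Casp4 and Il18 between these same groups were known when the set was drawn up, so the values of all members in this contrast are given as a description, with no test.

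RNA came from Thy1+ LSK cells of C57BL/6 bone marrow, a lineage-negative, Sca-1-positive and Kit-positive fraction rich in haematopoietic stem cells, from mice aged 11 to 18 months. One group of 2 arrays was wild type for Nol3 (Nol3+/+), and the other group of 2 lacked both copies and is labelled MPN, read here as myeloproliferative neoplasm (Nol3-/- MPN). Cells were not cultured and received no treatment. The sample labels give MPN to the Nol3-/- group alone, while the series title can be read as giving it to both, and the labels say neither how the null allele was made nor whether an array held 1 animal or a pool. Any p-value therefore measures the spread between these arrays only. The question put by the design is what absence of Nol3, together with the disease label, goes with in these cells, Nol3 being an inhibitor of cell death that carries a caspase recruitment domain.

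An inflammasome is a protein platform that forms when a sensor such as NLRP3 or AIM2 meets its trigger and gathers the adaptor ASC, encoded by Pycard, which in turn recruits caspase-1. Active caspase-1 cuts the precursors of interleukin-1 beta and interleukin-18 into their secreted forms and cuts gasdermin D, whose freed part makes pores in the plasma membrane and can end in pyroptosis, a lytic cell death. The product of mouse Casp4 senses cytosolic lipopolysaccharide directly and also cuts gasdermin D. Much of this control acts on proteins, which arrays do not measure. In blood stem and progenitor cells, interleukin-1 signalling is known for pushing output towards myeloid cells.

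Casp4 and Il18 carried the widest differences of the set, in opposite directions, and both lie on mouse chromosome 9, so the 250 bases before their annotated starts are shown to let a reader see what lies upstream of each. The windows come from RefSeq on GRCm38.p6, both on the plus strand, at chr9:5308599-5308848 for the first annotated start of Casp4 and at chr9:50554450-50554699 for Il18. Capitals mark matches to the NF-kB consensus.
Casp4: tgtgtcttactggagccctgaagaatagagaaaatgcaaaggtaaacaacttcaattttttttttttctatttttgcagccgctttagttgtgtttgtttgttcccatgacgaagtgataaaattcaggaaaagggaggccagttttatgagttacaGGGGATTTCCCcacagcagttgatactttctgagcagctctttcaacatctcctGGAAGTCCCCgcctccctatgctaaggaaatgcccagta
Il18: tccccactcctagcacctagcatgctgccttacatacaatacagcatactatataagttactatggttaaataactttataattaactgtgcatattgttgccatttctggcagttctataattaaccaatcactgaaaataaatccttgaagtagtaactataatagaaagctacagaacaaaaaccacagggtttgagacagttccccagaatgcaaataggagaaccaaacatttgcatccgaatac
The Casp4 window held the NF-kB consensus at 2 places, from -93 to -83, where matches on both strands overlap, and from -39 to -30, counted from the base before the start as -1. The Il18 window held none of the 3 motifs searched. Of 32851 such windows over all genes, 7.25% held the NF-kB consensus, 2.98% the interferon-stimulated response element core GAAANNGAAA and 7.02% the STAT site TTCNNNGAA, each searched on both strands. Windows were at hand for 8 of the 9 members, all but Gsdmd. The NF-kB consensus also occurred once before a start of Nlrp3, the STAT site 2 times before Casp12, and GAAANNGAAA before none of them. These are matches of letters and say nothing about binding in these cells.

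Values below are the deposited signals, taken as log2. Genes whose mean over the 4 arrays lay under 4.835, the 25th percentile of all genes, were set aside as dim, which left 16635 genes in the limma fit and 8 of the 9 members. Nlrp3 was the member set aside.

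Among the caspases, Casp4 had signals of 4.93 and 4.85 in Nol3+/+ against 6.35 and 5.94 in Nol3-/- MPN. Both Nol3-/- MPN arrays lay above both Nol3+/+ arrays, and the closest pair across the groups was 1.01 log2 units apart, wider than the 0.40 between the Nol3-/- MPN arrays. That came to a log2 difference of 1.25 (SE 0.18, 95% interval from 0.80 to 1.70), or 2.38-fold (1.74 to 3.26). The Nol3+/+ signals sat just above the limit for dim genes. Detection calls were not used, so signal was not told from background there, and the fold is one of deposited signals. By size of log2 difference Casp4 stood at place 89 from the top of the 16635 genes.

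Casp1, which encodes the caspase that matures both cytokines, read 8.73 and 9.06 in Nol3+/+ against 9.34 and 9.39 in Nol3-/- MPN. The groups did not overlap, but the nearest arrays were 0.28 apart, less than the 0.33 between the Nol3+/+ arrays. Its log2 difference was 0.47 (SE 0.22), with an interval from -0.09 to 1.02. Casp12, a close relative of the other 2 whose role in inflammasomes is less settled, read 6.45 and 6.64 in Nol3+/+ against 6.81 and 6.48 in Nol3-/- MPN. Its groups overlapped, since Nol3-/- MPN replicate 2 lay between the Nol3+/+ arrays, and the log2 difference was 0.10 with an interval from -0.44 to 0.65.

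The sensors and the adaptor gave no separation of the groups. Aim2, whose protein binds cytosolic DNA, read 7.34 and 6.98 in Nol3+/+ against 7.30 and 7.06 in Nol3-/- MPN. In each group replicate 1 was the higher array, both Nol3-/- MPN values fell inside the Nol3+/+ range, and the log2 difference was 0.02 with an interval from -0.59 to 0.63. Pycard read 5.45 and 6.02 in Nol3+/+ against 5.81 and 5.52 in Nol3-/- MPN, again with the second group inside the range of the first. Its log2 difference was -0.06 with an interval from -0.67 to 0.54, which leaves room for a change of either sign.

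Nlrp3, whose protein responds to potassium loss and membrane damage, read 4.87 and 4.77 in Nol3+/+ against 4.75 and 4.78 in Nol3-/- MPN. All but 1 of these values lay under the limit for dim genes, and the means differed by -0.05 log2 units. Without detection calls, this signal was not told from background.

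Gsdmd, the substrate through which caspases 1 and 4 open membrane pores, read 5.64 and 5.45 in Nol3+/+ against 5.77 and 5.88 in Nol3-/- MPN. The groups did not overlap, with 0.13 between the nearest arrays against 0.19 within Nol3+/+. The log2 difference of 0.28 (SE 0.15) had an interval from -0.09 to 0.65. Its second row, dimmer on every array, read 5.11 and 4.83 in Nol3+/+ against 5.26 and 5.24 in Nol3-/- MPN, a log2 difference of 0.28 as well.

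Of the cytokines, Il1b read 5.59 and 5.46 in Nol3+/+ against 5.65 and 5.72 in Nol3-/- MPN. The Nol3-/- MPN arrays were the higher ones by 0.06 at the nearest pair, and the log2 difference was 0.16 with an interval from -0.18 to 0.50. Il18 read 6.67 and 6.59 in Nol3+/+ against 5.30 and 5.85 in Nol3-/- MPN. Both Nol3-/- MPN arrays were below both Nol3+/+ arrays by at least 0.74 log2 units, while they were 0.55 apart from each other, against 0.09 for the Nol3+/+ pair. The log2 difference of Il18 was -1.06 (SE 0.23, interval from -1.64 to -0.47), so the Nol3+/+ signal was 2.08-fold the Nol3-/- MPN signal. It stood at place 112 from the bottom of the 16635 genes. In bulk samples such as these, fewer cells of a type and less RNA per cell cannot be told apart.

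**Figure D1:**
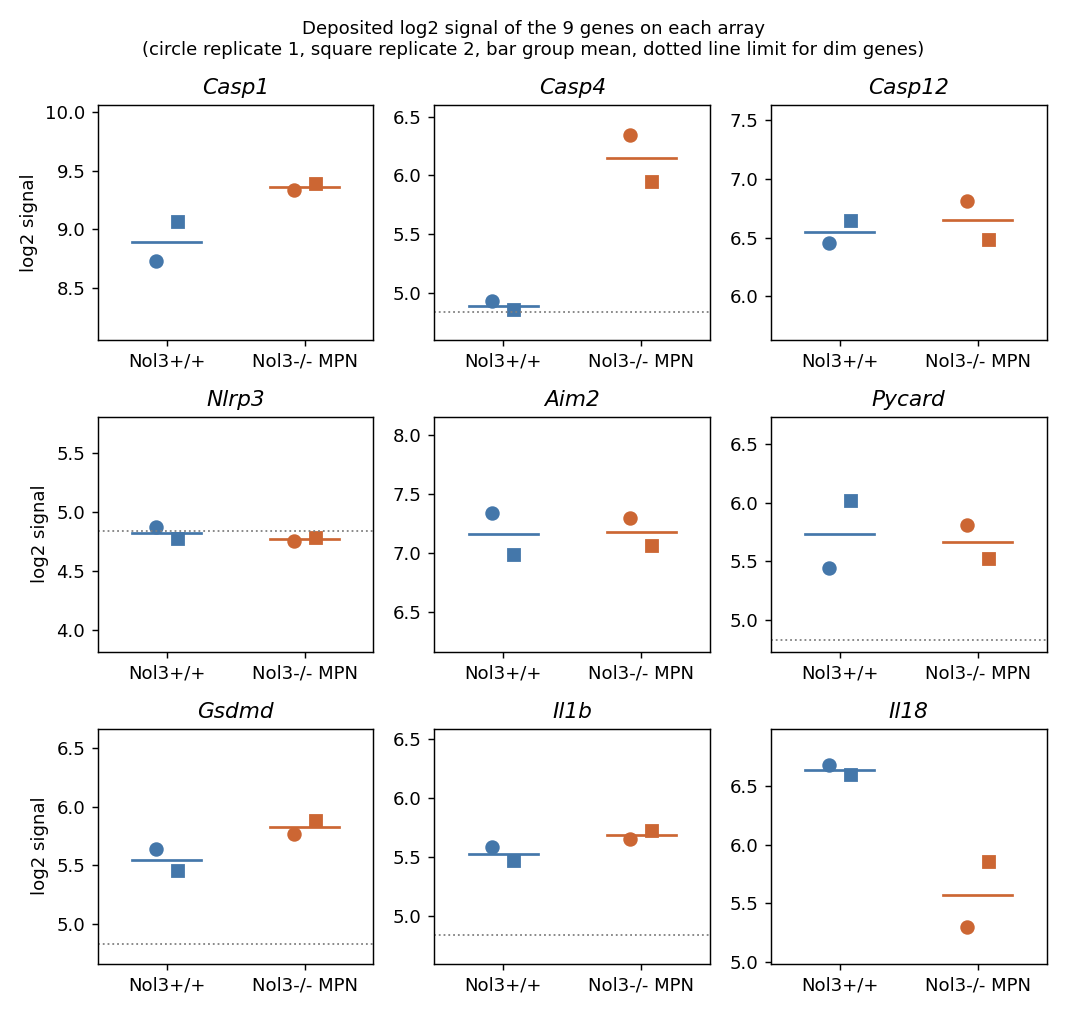
Deposited log2 signal (vertical axes, each spanning 2 log2 units) of the 9 genes on the 2 Nol3+/+ arrays (blue) and the 2 Nol3-/- MPN arrays (orange), with circles for replicate 1, squares for replicate 2, bars for group means and a dotted line at the limit for dim genes of 4.835. Casp4 stands 1.25 log2 units higher and Il18 stands 1.06 lower in Nol3-/- MPN, while the points of Casp12, Aim2, Pycard and Nlrp3 overlap between groups.

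Counted together, 6 of the 8 members above the dim limit had the higher mean in Nol3-/- MPN and 2 had the lower, with a median log2 difference of 0.13 against 0.01 over all genes tested. Of all 16635 genes tested, 8605 had the higher mean and 8030 the lower. Group values were free of overlap for 5 of the 8, beside 35.5% of all genes tested. On the higher side these were 4, Casp4, Casp1, Gsdmd and Il1b, beside 19.7% of all genes, and on the lower side 1, Il18, beside 15.9%. A difference of at least 2-fold without overlap was met by Casp4 on the higher side, where 0.872% of all genes met it, and by Il18 on the lower side, where 0.559% did. Since the set was drawn up with these differences known, nothing is read from these shares. The intervals and SEs come from the limma fit over all genes and serve as a measure of spread, and no p-value is given for a member. With 2 arrays a group, an exact two-sided permutation test of a single gene cannot go below p = 0.333.

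Leaving out each array in turn gave differences from 1.052 to 1.455 for Casp4 and from -1.333 to -0.7838 for Il18. Casp1 ranged from 0.30 to 0.63, Gsdmd from 0.19 to 0.37 and Il1b from 0.10 to 0.22. The differences of Casp12, Aim2 and Pycard changed sign, ranging from -0.06 to 0.27, from -0.16 to 0.20 and from -0.35 to 0.22. Members free of overlap numbered 8 with Nol3+/+ replicate 2 left out, beside 73.4% of all genes, and 7 with Nol3+/+ replicate 1 left out, beside 66.6%. They numbered 6 with Nol3-/- MPN replicate 2 left out, beside 67% of all genes, and 5 with Nol3-/- MPN replicate 1 left out, beside 64%. A group of 1 array has no spread of its own, which makes overlap rarer.

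**Figure D2:**
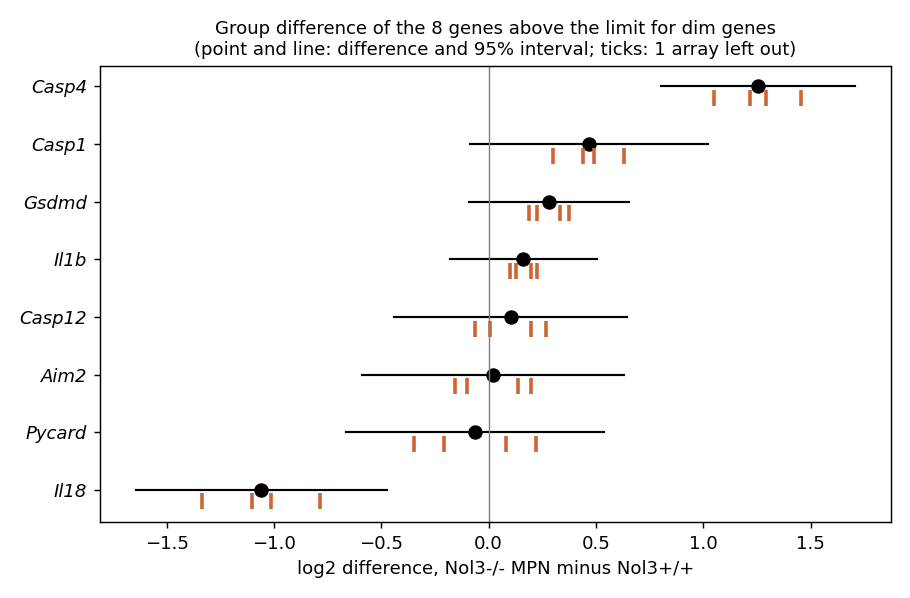
Log2 difference, Nol3-/- MPN minus Nol3+/+ (horizontal axis), of the 8 members above the limit for dim genes, with the 95% interval of the limma fit (black) and the values with 1 array left out (orange ticks). The interval runs from 0.80 to 1.70 for Casp4 and from -1.64 to -0.47 for Il18. The differences of both were known when the set was drawn up, so the intervals describe spread and test no member.

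Casp1, Casp4 and Casp12 are neighbours on chromosome 9, and Il18 lies farther along the same chromosome, so the tested genes beside them were set next to them. In order along the chromosome the log2 differences were 0.28 for Msantd4, 0.20 for Gria4, 0.47 for Casp1, 1.25 for Casp4, 0.10 for Casp12, 0.27 for Dync2h1 and -0.01 for Dcun1d5. The 3 neighbours of Casp4 that showed no overlap and are no members were Msantd4, Gria4 and Dync2h1. All 3 read higher in Nol3-/- MPN, as 19.7% of all genes tested did without overlap. Their limma adjusted p-values were 0.869, 0.856 and 0.841. Around Il18 the differences were 0.01 for Plet1, 0.14 for Pts, 0.33 for Bco2, 0.10 for Sdhd, -0.29 for Timm8b and 0.19 for Nkapd1. Bco2, a carotenoid-cleaving enzyme gene next to Il18, had the opposite sign to Il18 and did not overlap between groups (limma adjusted p = 0.841).

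**Figure D3:**
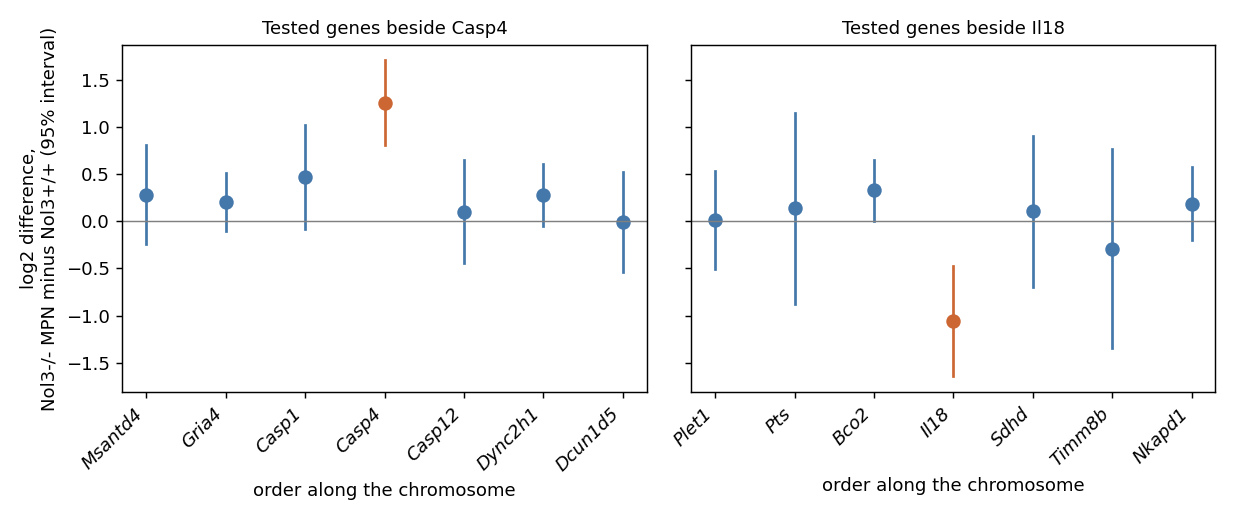
Log2 difference with its 95% interval (vertical axis) of Casp4 and Il18 (orange) and of the 3 nearest tested genes on each side (blue), in chromosome order and not to scale of distance. Casp4 at 1.25 and Il18 at -1.06 have point values outside those of their neighbours, which lie between -0.29 and 0.47. The interval of Casp4 overlaps that of Casp1 and just meets that of Msantd4, at 0.80. The interval of Il18 overlaps those of Plet1, Pts, Sdhd and Timm8b, and that of Timm8b takes in the value of Il18.

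The genes whose values over the 4 arrays ran closest to Casp4, by the root mean square difference of values centred on each gene's mean, were Clnk at 0.08, Kdm6a at 0.08 and Ergic2 at 0.13 log2 units, among 13686 genes ranked. Clnk, an adaptor gene of immune receptor signalling, read 6.88 and 6.75 in Nol3+/+ against 8.15 and 7.97 in Nol3-/- MPN. Kdm6a, an X-linked histone demethylase gene that escapes X inactivation, read 6.48 and 6.45 against 8.09 and 7.67, and Ergic2, a gene of transport between endoplasmic reticulum and Golgi, differed by 1.01. Closest to Il18 were Hdac1 at 0.08, Sult2a5 at 0.09 and Rsph3b at 0.10 log2 units. Hdac1, which encodes a histone deacetylase, read 8.51 and 8.66 in Nol3+/+ against 7.24 and 7.77 in Nol3-/- MPN, while Sult2a5 and Rsph3b differed by -0.94 and -1.04. These rankings rest on 4 arrays and describe likeness of values only.

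Other genes of the pathway were taken from 6 lists of 117 genes in all, none of them a member. Of these, 104 had a row with 1 symbol and 87 were above the dim limit. No gene of the lists passed an adjusted p of 0.05 in limma, beside 0.024% of all genes, and 6 of the 87, or 6.9%, had an unadjusted p under 0.05, beside 5.8% of all genes, 4 of them higher in Nol3-/- MPN (3.73% of all genes) and 2 lower (2.07%). The count depended on which array was left out, and its share did not follow that over all genes in every case. Of the 87, 21 lay higher without overlap and 9 lower, beside 19.7% and 15.9% of all genes tested. By mean, 54 of the 87 were higher and 33 lower, beside 8605 and 8030 of all 16635 genes tested. Genes named below are mainly those of smallest p in each list, a choice that favours genes without overlap.

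Of the sensors and adaptors, 9 of the 17 tested had higher means and 8 lower, with a median log2 difference of 0.02. Nek7, which encodes the kinase that NLRP3 needs for assembly, read 5.52 and 6.12 in Nol3+/+ against 7.35 and 6.73 in Nol3-/- MPN. Its groups did not overlap, and its difference of 1.22 (SE 0.32, limma adjusted p = 0.841) was the widest among the 87 genes, ahead of Ifi209 and Mlkl. Ifi209 and Mndal, of the same interferon-inducible family as Aim2, differed by -0.84 (SE 0.30) and -0.58 (SE 0.25), both without overlap and both with an adjusted p of 0.841 in limma. Members of this family are close in sequence, so their rows may share signal. Nlrc4, whose protein relays detection of bacterial flagellin, differed by 0.02.

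In the interleukin-1 family, 8 of the 13 tested genes were higher and 5 lower, with a median of 0.08 and 0 at an unadjusted p under 0.05. Il1r1, the signalling receptor for interleukin-1, read 7.32 and 7.56 in Nol3+/+ against 8.04 and 7.86 in Nol3-/- MPN, a difference of 0.51 (SE 0.23). Il1rn, which encodes the receptor antagonist, read 6.41 and 6.25 against 5.98 and 6.02, a difference of -0.33 (SE 0.16). Il18rap, the accessory chain of the interleukin-18 receptor, differed by 0.31 (SE 0.15), and Il18bp, the soluble decoy for interleukin-18, by -0.28 (SE 0.20). The first 3 had a limma adjusted p of 0.841 and Il18bp, named after its values were seen, one of 0.869. None of the 4 overlapped between groups, but they are the genes of smallest p in this list. Of the 13 tested, 4 lay higher without overlap and 2 lower, beside 19.7% and 15.9% of all genes tested. Il1r2, of the same list, differed by 0.08 and overlapped between groups.

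Among priming receptors and adaptors, which switch on transcription of inflammasome genes, 12 of 21 tested genes were higher and 9 lower, with a median of 0.05. Tlr6, a partner of Tlr2 in sensing bacterial lipopeptides, read 4.69 and 4.89 in Nol3+/+ against 5.46 and 5.40 in Nol3-/- MPN, a difference of 0.63 (SE 0.13, limma adjusted p = 0.841). Its Nol3+/+ arrays straddled the dim limit. Rela, an NF-kB subunit gene, and Traf6, a signal relay gene below these receptors, differed by 0.41 (SE 0.22) and 0.28 (SE 0.13), without overlap and with the same limma adjusted p of 0.841. Tlr4, the surface receptor for lipopolysaccharide, differed by -0.004. Ly96, which encodes its co-receptor and is named after its values were seen, was set aside as dim, with 6.53 in Nol3+/+ replicate 1 and between 4.15 and 4.25 on the other arrays.

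Of the regulators and ion channels, 17 of 24 tested genes were higher and 7 lower, with a median of 0.05. Mlkl, the executor of necroptosis, read 5.89 and 5.87 in Nol3+/+ against 6.92 and 6.49 in Nol3-/- MPN, a difference of 0.83 (SE 0.21). Gbp3, of a guanylate-binding family that exposes bacterial lipopolysaccharide to the caspase sensor, read 7.13 and 7.04 against 7.68 and 7.67, a difference of 0.59 (SE 0.21). Serpinb9, a protease inhibitor gene, read 5.64 and 5.54 against 5.22 and 4.97, a difference of -0.50 (SE 0.15). Each of the 3 separated the groups, and each had a limma adjusted p of 0.841.

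Of the other caspases and their direct regulators, 6 of 7 tested genes were higher and 1 lower, with a median of 0.18 and 0 at an unadjusted p under 0.05. The median was 0.05 with Nol3-/- MPN replicate 2 left out and 0.05 after quantile normalization. Casp6, an executioner caspase gene, differed by 0.37 (SE 0.16), Casp8, the initiator caspase of death receptors, by 0.40 (SE 0.25) and Xiap, an X-linked caspase inhibitor gene, by -0.42 (SE 0.25), with limma adjusted p-values of 0.841, 0.863 and 0.857. Gasdermin and membrane rupture genes were split 3 to 3 among the 6 tested, with a median of -0.01, and 5 others were dim. Gsdma3, Chmp4b and Vps4b, the last 2 of the machinery that repairs membrane pores, differed by -0.22, 0.26 and 0.24 (limma adjusted p of 0.857, 0.919 and 0.919).

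**Figure D4:**
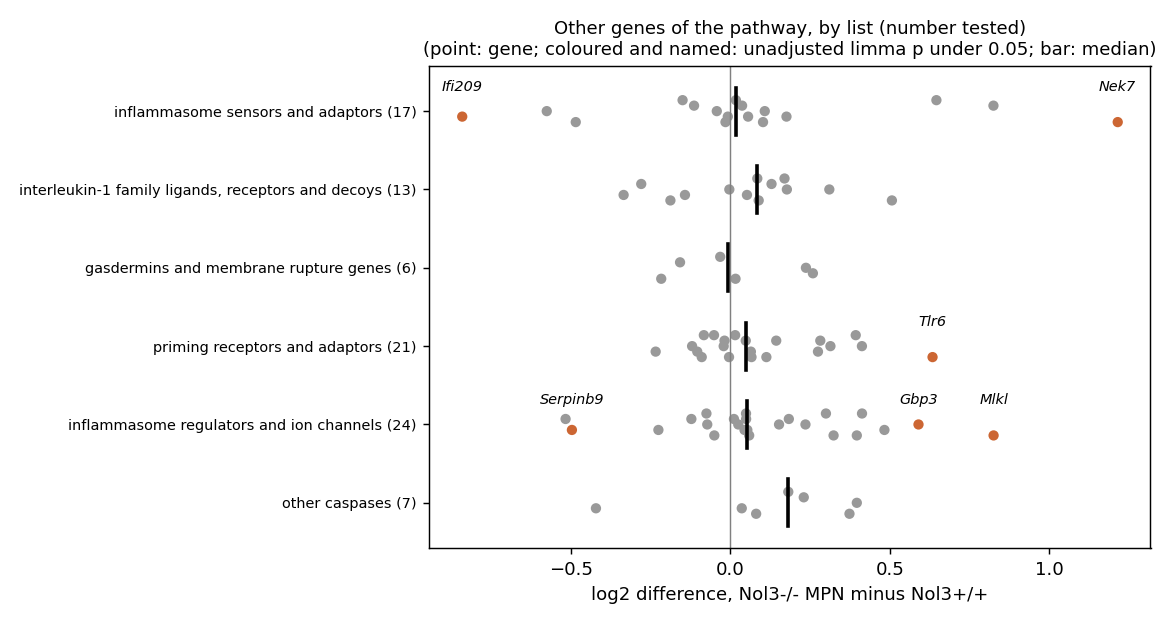
Log2 difference, Nol3-/- MPN minus Nol3+/+ (horizontal axis), of the tested genes of the 6 pathway lists, with 1 point per gene and a bar at each median. Orange points, named, are the 6 genes at an unadjusted limma p under 0.05, and the list medians lie between -0.01 and 0.18.

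Facts of the whole data set bear on all these values. The array medians lay between 5.35 and 5.39 log2 units, and over tested genes Nol3+/+ replicate 1 and 2 correlated at 0.911 and the Nol3-/- MPN pair at 0.949, while pairs across the groups ran from 0.899 to 0.945, all across genes, which are not replicates. The probe row of Nol3 read the same in both groups (difference 0.02, interval from -0.34 to 0.38), and the labels do not place the deletion, so it checks nothing. Xist signal was 5.43 log2 units higher in Nol3-/- MPN (limma adjusted p = 0.0234), and 11 of 13 tested Y-linked genes lay lower without overlap, so genotype, the disease label and sex-linked signal cannot be told apart for any member. Of the sort markers, Kit averaged 8.09 and 7.88 and Thy1, near the dim limit, 4.88 and 4.94 (Nol3+/+ first), and Ly6a, the gene of Sca-1, was not analysed here.

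Mature myeloid cells express several members strongly, so their markers are given beside the member values. The mean log2 signal of 12 neutrophil genes was 6.15 and 6.70 in Nol3+/+ against 6.19 and 6.17 in Nol3-/- MPN. Of those tested, 2 were lower at an unadjusted limma p under 0.05 (S100a8 at -0.86 and S100a9 at -0.83) and 0 higher. Without overlap, 5 of the 12 were lower and 2 higher, beside 15.9% and 19.7% of all genes tested. Ly6g, higher without overlap, was dim and so left out of the fit. It read 4.43 and 4.24 in Nol3+/+ against 4.96 and 5.38 in Nol3-/- MPN. The mean signal of 14 macrophage and monocyte genes was 5.55 and 5.54 against 5.55 and 5.61. At the same p, 1 was higher (Adgre1 at 0.37) and 0 lower, and 2, Cd14 and Itgam, were under the dim limit on every array. The 9 dendritic genes averaged 6.28 and 6.21 against 6.14 and 6.16, with 1 lower (H2-Aa at -0.89) and 0 higher. The 6 B cell genes averaged 5.18 and 5.18 against 5.26 and 5.37, and the 9 T and NK cell genes 5.60 and 5.51 against 5.65 and 5.67, with 1 higher in each list (Cd79b at 0.50, Nkg7 at 0.86). The dendritic, B cell and T and NK cell means did not overlap between the groups, but single genes carried the first and the last. Without H2-Aa the dendritic means were 6.27 and 6.23 against 6.29 and 6.22, and without Nkg7 the T and NK cell means were 5.39 and 5.36 against 5.37 and 5.40, both overlapping. Without Cd79b the B cell means were 5.05 and 5.04 against 5.05 and 5.17. The means of the erythroid, megakaryocyte and stem and progenitor (sort) marker lists overlapped. At the same unadjusted limma p, 1 gene of the stem and progenitor list was lower (Hlf at -0.83) and 0 higher. In the megakaryocyte list 1 was higher (Pf4 at 0.59) and 0 lower. Neither Hlf nor Pf4 overlapped between groups. No marker passed the limma adjusted threshold, and the part of these cells in the member differences was not tested.

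**Figure D5:**
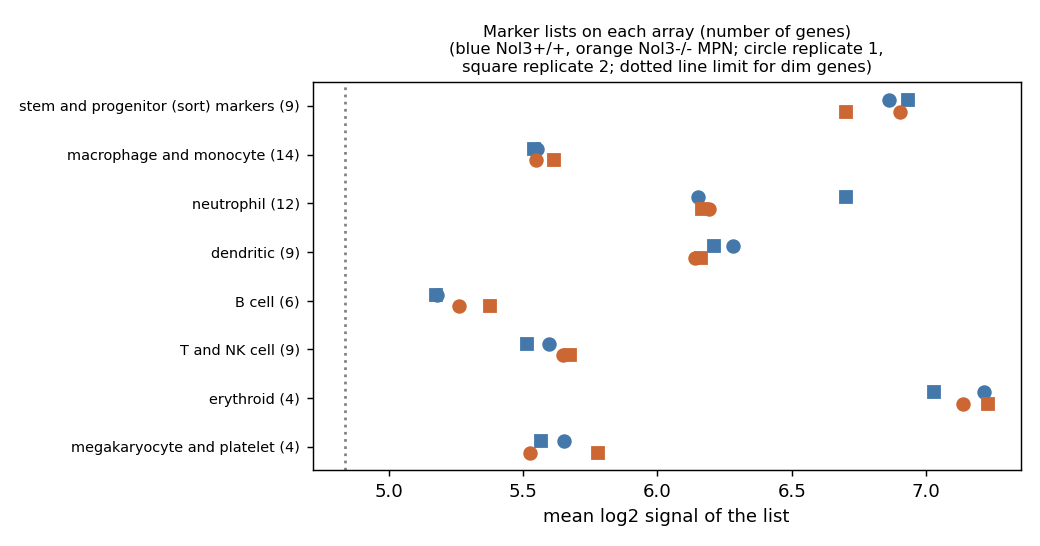
Mean log2 signal (horizontal axis) of each marker list on the 2 Nol3+/+ arrays (blue) and the 2 Nol3-/- MPN arrays (orange), with circles for replicate 1, squares for replicate 2 and a dotted line at the limit for dim genes. Nol3+/+ replicate 2 stands out in the neutrophil list at 6.70, and the macrophage and monocyte list lies between 5.54 and 5.61 on all arrays.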

How the data were processed

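RNA was amplified isothermally and hybridised to Affymetrix whole-transcript arrays, per the labels' protocols. The submitters' processing notes name Affymetrix Expression Console and the Transcriptome Analysis Console. Their versions, like the normalization, were not given in the sources used here. Values deposited by the authors, 41345 rows for 4 arrays, were treated as log2 signal. That scale was read from the values, which run from 2.84 to 13.5, and base 2 is assumed. Detection calls were not used, and precision is limited by having 2 arrays a group.

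The platform annotation gave 1 gene symbol to 23521 rows, several to 1814 and none to 16010. Of several rows of a gene the one with the highest mean was used, for 1082 genes. Listed genes were matched by symbol or through a RefSeq table of GRCm38.p6, which also gave gene order. The contrast was fitted in R 4.3.3 using limma 3.58.1 (linear model, eBayes with a trend, 2 residual and 3.192 prior degrees of freedom) over 16635 genes, with Benjamini-Hochberg adjustment at 0.05. The fit was tested on simulated data. The members, lists and rules were chosen with earlier results of these data known. Named genes were the members, the 3 with the smallest p of each list (others as examples, chosen after their values were seen) and the 3 closest in pattern to Casp4 and to Il18. Same-numbered replicates share only a number, with deviations correlated at 0.05. Alternatives were a replicate block, leaving out each array, other limits for dim genes, the mean of rows, quantile normalization, no variance trend and X- and Y-linked genes left out.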

Additional observations from a re-analysis of the deposited data

How the results depend on the processing

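Of 209 values recomputed under 11 alternatives, 190 stayed within the replicate spread or within 1.5 times the original count. That tally takes in values that an alternative could not change. It also takes in the sign changes of Casp12, Aim2 and Pycard, so it is no measure of stability. Casp4, Casp1, Gsdmd, Il1b, Il18 and Nlrp3 kept the sign of their difference under all 11 alternatives. Only leaving out an array, quantile normalization and, for Gsdmd, the mean of rows could change such a difference. The other alternatives are no check of it. The count of all genes past it was 4, and it was 0 with the replicate number as a block, 0 with X- and Y-linked genes left out, and from 0 to 39 with 1 array left out. Genes past both a 2-fold difference and an unadjusted p of 0.05 numbered 169, and from 194 to 538 with 1 array left out. Members without overlap numbered 5 (35.5% of all genes), and from 5 to 8 with 1 array left out (64% to 73.4% of all genes). Pathway genes at an unadjusted p under 0.05 numbered 6, and from 3 to 12 with 1 array left out, while the share of all genes ran from 3.44% to 11.4%.

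With 1 array left out the median log2 difference ran from -0.083 to 0.19 for the interleukin-1 family, from 0.0063 to 0.13 for priming genes, from -0.17 to 0.22 for gasdermin and rupture genes, from 0.05 to 0.27 for other caspases and from 0.075 to 0.15 for regulators, which stood at 0.15 under the stricter limit for dim genes. The cause was not tested. The replicate block could change neither a member's difference nor the 5 members without overlap. It left 6 pathway genes at an unadjusted limma p under 0.05. The marker list means without single genes were chosen after seeing the data. Low signals, without detection calls, limit Nlrp3 and the Nol3+/+ values of Casp4.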
